A study of Mus musculus with 4 samples.

Results

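The genes described here are 43 mouse genes of the sarcomere and the structure of striated muscle fibres, taken by name from a list. They encode the thick and thin filaments, the Z disc and desmin scaffold and the M band with titin, together with 2 abundant soluble proteins of the fibre, muscle creatine kinase and myoglobin. All 43 had a named probe set, of 18193 genes with a named probe set in all, and all 43 were called Present on all 4 arrays. RNA of the parietal peritoneum, the lining of the abdominal wall, was measured on 1 Affymetrix mouse array per group, so the differences below have no replicate check. The groups were C57BL/6J mice with the SAP-BNP-Tg transgene given chlorhexidine gluconate (CG), SAP-BNP-Tg mice given vehicle, wild-type (WT) mice given CG and WT mice given vehicle. SAP-BNP-Tg, shortened to Tg below, places brain natriuretic peptide (BNP) under the serum amyloid P promoter, which in mice is active chiefly in the liver. CG, an antiseptic used to injure and thicken the peritoneum of rodents, was injected into the peritoneal cavity as a 0.1% solution in 15% ethanol and 85% PBS at 0.01 mL per g body weight, 3 times per week for 21 days. The vehicle groups, which the labels call PBS, received ethanol with PBS. Age, sex and the number of mice behind each array are not given in the labels. The BNP gene Nppb was called Absent on all 4 arrays, so its signal gives no check of the genotype labels in this tissue.

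In a striated muscle fibre, myosin of the thick filament pulls on actin of the thin filament, and calcium starts the pull by binding troponin C, which moves tropomyosin along actin. The Z disc anchors thin filaments end to end, the M band holds thick filaments at their centre, and titin spans from Z disc to M band. Slow and fast fibres carry different genes for the same subunit, such as the slow myosin heavy chain Myh7 and the fast chains Myh1, Myh2 and Myh4, and several slow genes are shared with the heart. Embryonic and perinatal isoforms are used in developing muscle and again in regenerating fibres.

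Signals below are the deposited intensities scaled to a common 2% trimmed mean. A gene took its brightest probe set, and differences are CG minus vehicle on the log2 scale unless said otherwise. Differences of at least 1 (2-fold) were called higher or lower where the brighter array had a Present call and a signal no dimmer than the 25th percentile of all Present signals on it. The share of probe sets called Present was 53.5% (CG, Tg), 52.5% (vehicle, Tg), 55.1% (CG, WT) and 50.5% (vehicle, WT). The vehicle WT array stood apart from the other 3: its mean 18S rRNA signal was 1052, against 81.5 to 108 on the others, and its ratio of 3′ to middle beta-actin control signals was 5.81, against 2.23 to 2.84. Whether these control signals bear on the differences below was not tested, and the main results are also given with the vehicle Tg array as the control of the CG WT array. The members were among the brightest genes in every sample. Of the 100 brightest genes, members made up 24 on the CG Tg array, 25 on the vehicle Tg array, 20 on the CG WT array and 26 on the vehicle WT array. The median member lay between percentiles 99.5 and 99.8 of the probe sets of an array. Mesothelial markers, by which the labelled tissue can be checked, were all Present on all arrays, but with a summed signal of 227 to 465 over 5 genes.

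Slow fibre genes had lower signals after CG in both genotypes, 8 of 8 in each. Of the 12 fast fibre genes 8 lay above 0 in Tg mice, by at most 0.15, and 0 in WT mice. Of all 12754 genes 6391 lay above 0 in Tg mice and 6368 in WT mice. The sign of the fast genes in Tg mice depended on the processing. With the signals as deposited 0 of those 8 stayed above 0, and against the vehicle WT array all 12 fast genes lay below 0. In Tg mice 1 of the 43 members was called lower, Mylk2, against 1.4% of all 12754 genes tested, and 1 was called higher, Actc1, against 3.81%. In WT mice 10 members were called lower, which is 23.3% of them against 4.93% of all genes, and 1 was called higher, again Actc1, against 8.22%. Of the 10 lower genes 7 were slow isoforms. The median difference of the members was -0.14 in Tg mice and -0.66 in WT mice, where that of all genes was 0.00 in each genotype. The 379 genes of any kind with a mean signal of 1861 to 5550, as bright as many members, had medians nearer to these. They were -0.16 in Tg mice and -0.51 in WT mice. Of the members 29 were below 0 in Tg mice and 42 in WT mice, where 6363 and 6386 of all 12754 genes were. In whole tissue, fewer muscle fibres and less RNA per fibre cannot be told apart.

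**Figure D1:**
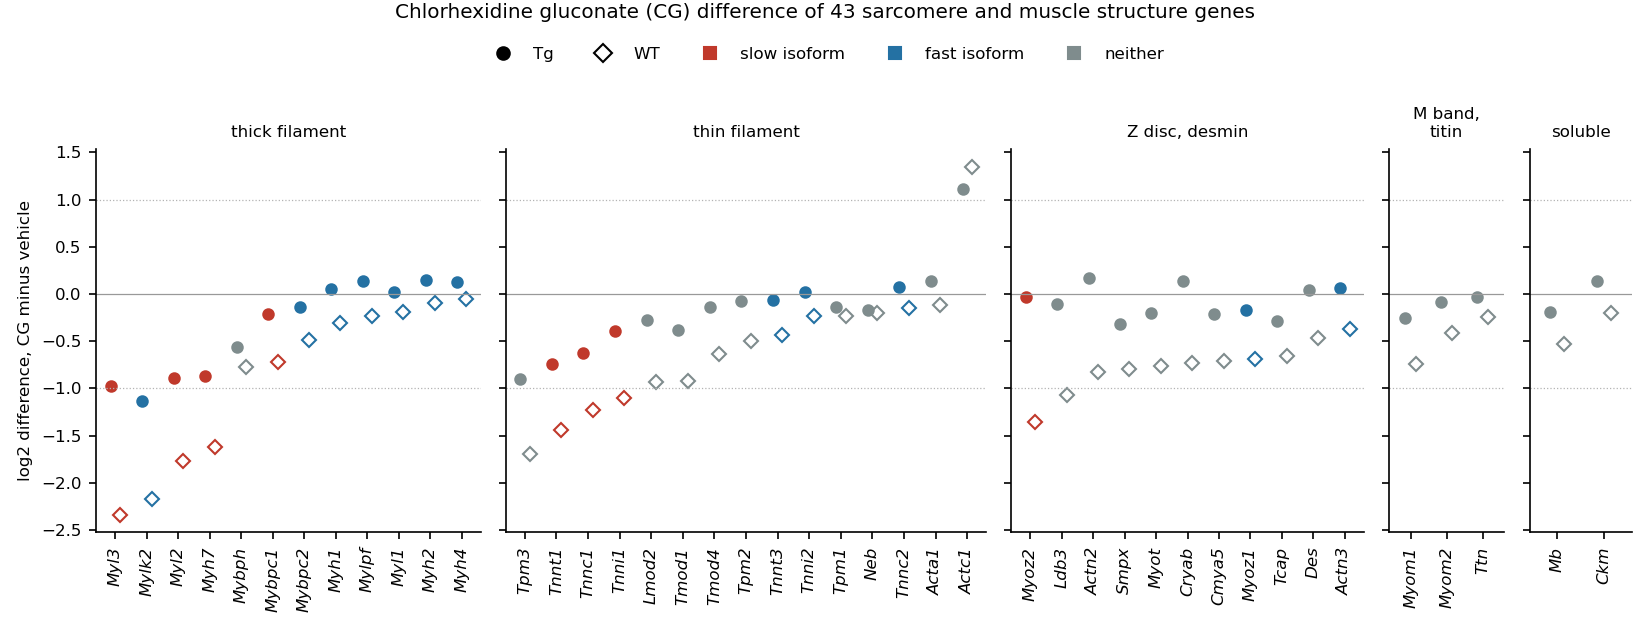
Log2 difference of CG minus vehicle (y axis) for each of the 43 members, grouped by role and ordered by the WT difference, with filled circles for Tg mice, open diamonds for WT mice and colour for slow, fast and other genes; dotted lines mark the 2-fold threshold. Most slow genes, Mylk2 and Tpm3 sit lowest in both genotypes, the fast genes other than Mylk2 span -0.17 to 0.15 in Tg mice and -0.69 to -0.06 in WT mice, and Actc1 lies above 1 in both.

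The 8 slow isoforms had a median difference of -0.68 in Tg mice (-0.97 to -0.03, 0 of 8 called) and of -1.40 in WT mice (-2.34 to -0.72, 7 of 8 called lower). These counts depended on the scaling and on the vehicle array. With the signals as deposited 3 slow genes were called lower in Tg mice (2.51% of all genes) and 5 in WT mice (2.49% of all genes). Against the other genotype's vehicle array 7 were lower for the CG Tg array (2.45% of all genes) and 2 for the CG WT array (3.57% of all genes). Myh7, the slow myosin heavy chain, had a signal of 2464 in CG Tg mice and 4508 in vehicle Tg mice, and of 2491 in CG WT mice and 7646 in vehicle WT mice. Both CG arrays thus lay at nearly the same signal, below both vehicle arrays, and the vehicle WT array was the highest of the 4. The difference was -0.87 in Tg mice (1.83-fold lower) and -1.62 in WT mice (3.07-fold lower). Myl2, the regulatory light chain of slow and cardiac myosin, had a signal of 2417 with CG against 4475 with vehicle in Tg mice and 1977 with CG against 6753 with vehicle in WT mice. Myl3, the essential light chain of the same myosin, had a signal of 1256 with CG against 2461 with vehicle in Tg mice and 876 with CG against 4432 with vehicle in WT mice. Its WT difference of -2.34 (5.06-fold lower) was the lowest among the 43 members, and its Tg difference was -0.97 (1.96-fold lower). All 3 slow myosin subunits kept the same order of arrays, with the vehicle WT array on top, the vehicle Tg array next and the CG arrays lowest.

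The slow troponins had the same order between vehicle and CG. Tnnc1, the calcium-binding troponin C of slow and cardiac muscle, had a signal of 1832 with CG against 2818 with vehicle in Tg mice and 1953 with CG against 4568 with vehicle in WT mice. Tnnt1, which ties the slow troponin complex to tropomyosin, had a signal of 1522 with CG against 2540.0 with vehicle in Tg mice and 1399.6 with CG against 3801 with vehicle in WT mice. Tnni1, the slow inhibitory troponin, had a signal of 1697 with CG against 2233 with vehicle in Tg mice and 1727 with CG against 3709 with vehicle in WT mice. The 3 WT differences, -1.23, -1.44 and -1.10, were called lower, and the Tg differences of -0.62, -0.74 and -0.40 were not. Myoz2 departed from this in Tg mice. It encodes the slow fibre calsarcin of the Z disc, and had a signal of 1698 on the CG Tg array and 1734 on the vehicle Tg array, a difference of -0.03, but 1329 on the CG WT array and 3398 on the vehicle WT array, a difference of -1.35 that was called lower. Mybpc1, slow myosin-binding protein C, was called in neither genotype, at -0.22 in Tg mice and -0.72 in WT mice.

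The 12 fast genes had a median difference of 0.03 in Tg mice (-1.14 to 0.15) and of -0.27 in WT mice (-2.18 to -0.06). Mylk2, the skeletal muscle kinase of the regulatory light chain, was called in both genotypes, and no other fast gene was called in either. Its signal was 517 on the CG Tg array and 1136 on the vehicle Tg array (2.20-fold lower), and 294 on the CG WT array and 1326 on the vehicle WT array (4.52-fold lower). Here the 2 vehicle arrays lay close together and both CG arrays below them. Without Mylk2, the other 11 fast genes spanned -0.17 to 0.15 in Tg mice and -0.69 to -0.06 in WT mice. Myh4, the IIb myosin heavy chain, had a signal of 8057 with CG against 7375 with vehicle in Tg mice and 8645 with CG against 8983 with vehicle in WT mice. The IIx chain Myh1 and the IIa chain Myh2 had differences of 0.05 and 0.15 in Tg mice and of -0.31 and -0.09 in WT mice. These heavy chain genes are near-identical paralogs, so that their probe sets may share transcripts. The fast light chains Mylpf and Myl1 had log2 differences of 0.13 and 0.02 in Tg mice, and -0.23 and -0.19 in WT mice. The fast troponins Tnnc2, Tnni2 and Tnnt3 had log2 differences of 0.07, 0.02 and -0.07 in Tg mice and -0.15, -0.23 and -0.43 in WT mice. The direction of the fast median in Tg mice depends on the scaling: it was -0.17 with the signals as deposited, -0.01 with median centring and -0.02 with the mean of all probe sets of a gene.

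Slow and fast isoforms of the same subunit can be set against each other within an array, where a linear scaling cancels. The median log2 difference of the slow genes minus that of the fast genes was -0.71 in Tg mice and -1.13 in WT mice. The fast probe sets lie near the top of the signal range, with 6 fast and 0 slow genes among the 20 brightest genes of each array and Tnnt3 the brightest gene of both vehicle arrays. Whether signals at that level follow the amount of RNA in proportion was not tested, so the slow minus fast values carry that limit. Within the 8 slow and fast pairs, the slow gene had the lower difference in 7 pairs in Tg mice (median -0.68) and in 8 pairs in WT mice (median -1.04). For the regulatory light chains Myl2 and Mylpf the slow minus fast value was -1.02 in Tg mice and -1.54 in WT mice. For the essential light chains Myl3 and Myl1 it was -0.99 in Tg mice and -2.15 in WT mice. The heavy chains Myh7 and Myh4 lay between these in both genotypes, at -1.56 in WT mice. The 3 troponin pairs spanned -0.69 to -0.41 in Tg mice and -1.08 to -0.87 in WT mice. The exception in Tg mice was the calsarcin pair Myoz2 and Myoz1, at 0.14, against -0.66 in WT mice. With the vehicle Tg array as the control of the CG WT array, the slow minus fast median was -0.70, and 7 of the 8 pairs were below 0.

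**Figure D2:**
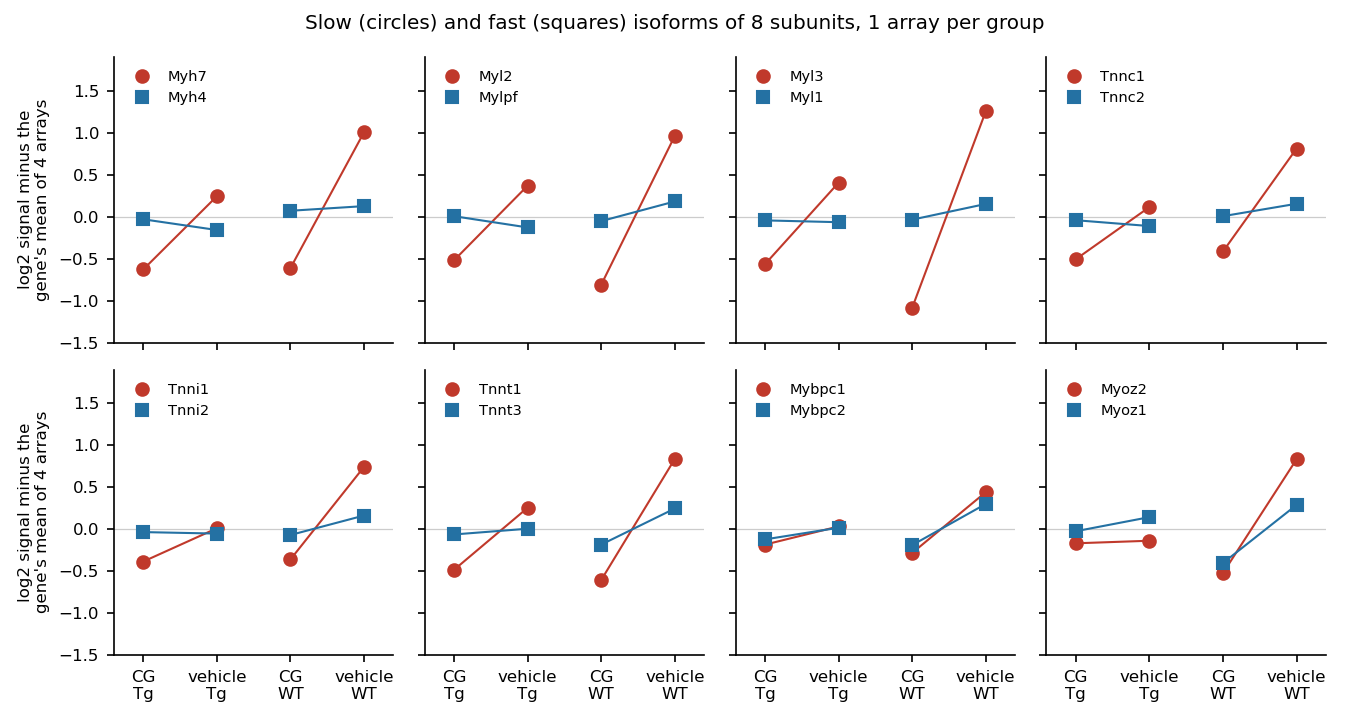
Log2 signal of the slow (red circles) and fast (blue squares) gene of 8 subunits, each minus that gene's mean over the 4 arrays (y axis), on the CG and vehicle arrays of Tg and WT mice (x axis). The slow gene lies lower under CG, relative to vehicle, than its fast partner in 7 panels for Tg mice and in all 8 for WT mice; Myoz2 in Tg mice is the exception.

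Promoter sequences are shown for slow and fast pairs of the essential light chain and of troponin C, and for Actc1, since these pairs had the widest slow minus fast gap of the myosin and the troponin subunits in WT mice and Actc1 was the member called higher. The sequences are the 250 bases before the gene's start in RefSeq's mouse assembly GRCm38.p6, written 5′ to 3′ on the gene's strand. Capitals mark matches, on either strand, to the E-box (CANNTG), the MCAT element (CATTCC), the TATA box (TATAAA) and the CArG and MEF2 elements, all known from promoters of muscle genes. A CArG or MEF2 match can hold the letters of the TATA box. Myl3 lies at chr9:110763428-110763677 on the plus strand, Myl1 at chr1:66945057-66945306 on the minus strand, Tnnc1 at chr14:31208062-31208311 on the plus strand, Tnnc2 at chr2:164779735-164779984 on the minus strand and Actc1 at chr2:114052876-114053125 on the minus strand.
Myl3: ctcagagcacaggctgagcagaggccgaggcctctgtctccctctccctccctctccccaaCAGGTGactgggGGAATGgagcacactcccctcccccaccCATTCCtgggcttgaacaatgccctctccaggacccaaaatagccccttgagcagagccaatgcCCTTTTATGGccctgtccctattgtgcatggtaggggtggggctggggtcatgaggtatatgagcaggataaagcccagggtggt
Myl1: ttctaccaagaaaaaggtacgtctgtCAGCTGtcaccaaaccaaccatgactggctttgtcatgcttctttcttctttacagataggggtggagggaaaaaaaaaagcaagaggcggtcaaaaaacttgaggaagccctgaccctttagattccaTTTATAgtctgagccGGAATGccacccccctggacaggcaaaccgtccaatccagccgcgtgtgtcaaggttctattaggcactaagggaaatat
Tnnc1: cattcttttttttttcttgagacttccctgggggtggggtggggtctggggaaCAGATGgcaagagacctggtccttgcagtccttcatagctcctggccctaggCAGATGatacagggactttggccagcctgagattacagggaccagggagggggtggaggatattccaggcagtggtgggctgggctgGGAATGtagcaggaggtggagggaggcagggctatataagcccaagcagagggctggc
Tnnc2: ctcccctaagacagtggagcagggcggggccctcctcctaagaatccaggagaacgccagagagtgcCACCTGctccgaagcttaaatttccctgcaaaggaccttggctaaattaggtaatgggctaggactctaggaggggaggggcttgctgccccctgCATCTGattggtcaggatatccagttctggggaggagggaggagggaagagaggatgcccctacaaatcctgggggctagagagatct
Actc1: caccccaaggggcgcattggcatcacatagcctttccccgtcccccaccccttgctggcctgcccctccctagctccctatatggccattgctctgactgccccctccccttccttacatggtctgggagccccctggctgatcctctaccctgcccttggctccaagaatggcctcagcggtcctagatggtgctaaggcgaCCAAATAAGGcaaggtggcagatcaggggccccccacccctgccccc
The Myl3 window held an E-box, a CArG element and MCAT elements at 2 places. That of Myl1 held an E-box, an MCAT element and a match to TATAAA at positions -95 to -90 from the start. The TATAAA match of Myl1 lay on the strand opposite to the gene. Only the exact letters TATAAA were searched, so other forms of the TATA box were not marked in any window. The Tnnc1 window held E-boxes at 2 places and an MCAT element, and that of Tnnc2 E-boxes at 2 places. The Actc1 window held a CArG element at positions -47 to -38 from the start and none of the other motifs. Of the 43 members 33 had a promoter among those used here from the RefSeq table. Promoters of 1 chromosome were left out of these counts, for members and for all genes. An E-box was found in 27 of these 33, where 69.3% of the 27025 genes with a promoter had one. MCAT was found in 11 (14.4% of all genes), CArG in 6 (1.62%), MEF2 in 4 (3.42%) and TATAAA in 7 (14.3%). Among the slow genes an E-box was found in 8 of 8 windows, MCAT in 3, TATAAA in 2, and CArG and MEF2 in 1 each. Among the 7 fast genes with a window, an E-box was found in 5, MCAT in 4, TATAAA in 3, MEF2 in 2 and CArG in 1. Each of the 5 motifs was thus found in windows of both kinds.

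Slow and fast genes also differ in how bright their probe sets are, and the size of the CG difference varied with brightness among the members. The 13 members with a mean signal of 7000 or more, 9 of them fast and 0 slow, had a median difference of 0.06 in Tg mice and -0.23 in WT mice. The 10 members between 2000 and 4000, 5 of them slow, had medians of -0.51 in Tg mice and -1.16 in WT mice. Across the 43 members, Spearman's rho between the mean log2 signal and the difference was 0.616 in Tg mice and 0.731 in WT mice (Pearson's r 0.401 in Tg mice and 0.438 in WT mice), given as a description because the points share the same arrays. Over all genes tested, the median difference of the genes with a log2 signal between 11 and 12 was -0.19 in Tg mice and -0.57 in WT mice. Within the signal range of the slow genes, 1861 to 5550, the slow median was -0.68 in Tg mice and -1.40 in WT mice. In that range 11 members of neither fibre type had medians of -0.21 in Tg mice and -0.74 in WT mice. The 379 genes of any kind there had medians of -0.16 in Tg mice and -0.51 in WT mice. Of those 379 genes 3 were called lower in Tg mice and 43 in WT mice. Myoz1 was the only fast gene in that range, so slow and fast genes of equal brightness could not be compared as groups.

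**Figure D3:**
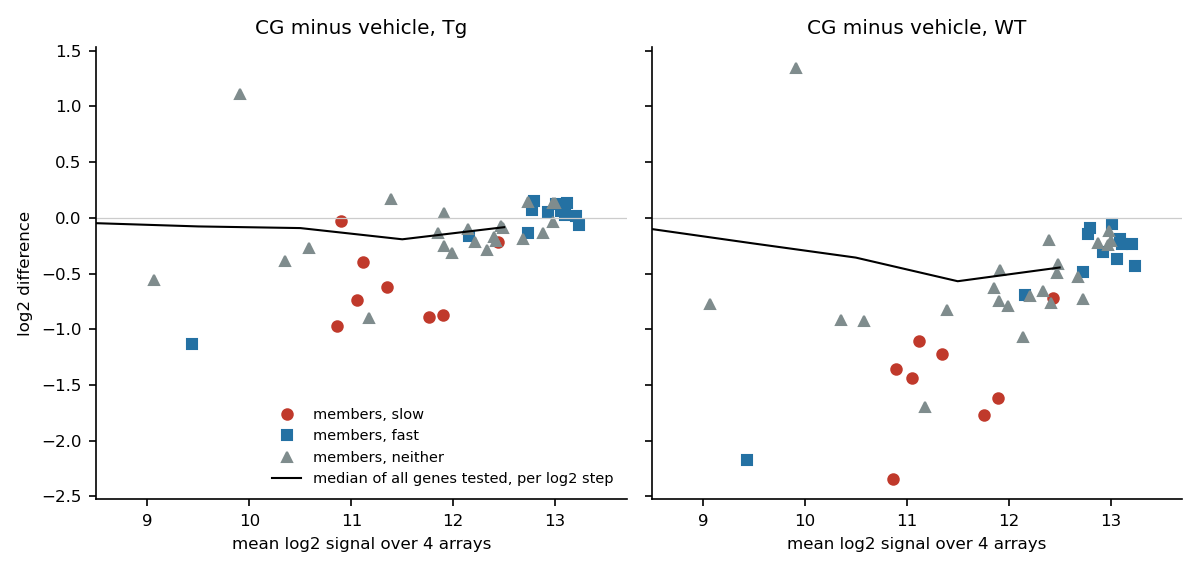
Log2 difference of CG minus vehicle (y axis) against the mean log2 signal over the 4 arrays (x axis) for the members, in Tg mice (left) and WT mice (right); the line is the median of all genes tested per log2 step of signal. All 8 slow genes (red circles) lie below the line in WT mice and all but Myoz2 in Tg mice, and the 13 brightest members, 9 of them fast, have medians of 0.06 in Tg mice and -0.23 in WT mice.

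Among the other thick filament genes, Mybpc2, the fast myosin-binding protein C, had differences of -0.14 in Tg mice and -0.49 in WT mice. Mybph, a relative of myosin-binding protein C, had a signal of 336 on the CG Tg array and 496 on the vehicle Tg array, and 541 on the CG WT array and 923 on the vehicle WT array. Its signal was lower in Tg than in WT mice under each treatment, with Tg minus WT differences of -0.69 under CG and -0.90 under vehicle, and neither was called. Of all 12 thick filament genes the median was -0.18 in Tg mice and -0.61 in WT mice.

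Thin filament genes held the members that differed most in direction. Actc1, cardiac alpha-actin, which developing skeletal muscle uses as well, was the only member called higher. It had a signal of 1190.4 on the CG Tg array and 551 on the vehicle Tg array, and 1827 on the CG WT array and 718 on the vehicle WT array. Both CG arrays were above both vehicle arrays, 2.16-fold in Tg mice and 2.55-fold in WT mice. The call in Tg mice was lost with the signals as deposited and against the vehicle WT array, where the log2 difference was 0.73. Acta1, the alpha-actin of adult skeletal muscle, had a signal of 7932 with CG against 7238 with vehicle in Tg mice and 8282 with CG against 9008 with vehicle in WT mice, differences of 0.13 in Tg mice and -0.12 in WT mice. The nebulin gene Neb, whose protein runs along the thin filament, had a log2 difference of -0.17 in Tg mice and -0.20 in WT mice. The filament-end genes Tmod1, Tmod4 and Lmod2, which cap or lengthen the slow-growing end of actin, had log2 differences of -0.39, -0.14 and -0.28 in Tg mice, and -0.92, -0.63 and -0.93 in WT mice. None of these was called.

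The tropomyosin genes, which encode muscle and non-muscle isoforms from 1 gene by alternative exons, gave results that depended on the probe set. Which transcripts each probe set detects was not tested, since no probe sequences were used here. The brightest Tpm3 probe set had a signal of 1598 on the CG Tg array and 2983 on the vehicle Tg array, and 1366 on the CG WT array and 4423 on the vehicle WT array (3.24-fold lower, called). Another Tpm3 probe set had a log2 difference of -0.89 in Tg mice and -1.35 in WT mice. The remaining 3 Tpm3 probe sets ran the other way, at 0.68, 0.71 and 0.71 in Tg mice and 1.17, 1.60 and 1.12 in WT mice. The brightest of these 3, which the deposited file describes as a nonmuscle tropomyosin, had a signal of 1041 with CG against 651 with vehicle in Tg mice and 1398 with CG against 621 with vehicle in WT mice. Lower and higher Tpm3 signals were thus present on the same arrays. For Tpm1 the brightest probe set had a log2 difference of -0.14 in Tg mice and -0.23 in WT mice, and the other 3 spanned -0.84 to 0.57 in Tg mice and -1.47 to 1.51 in WT mice. All 4 Tpm2 probe sets were below 0 in both genotypes, from -0.57 to -0.07 in Tg mice and from -1.05 to -0.50 in WT mice.

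Of the 43 members 14 had more than 1 probe set that was Present on all 4 arrays, and the sign of the WT difference disagreed between probe sets in 5 of them, Mybpc1, Myh4, Tpm1, Tpm3 and Ttn. The 3 Myl3 probe sets all lay below 0, at -0.97, -0.92 and -1.32 in Tg mice and -2.34, -3.19 and -2.38 in WT mice. For Ckm, whose brightest probe set had a log2 difference of 0.13 in Tg mice and -0.21 in WT mice, a dimmer probe set had a signal of 822 with CG against 1169 with vehicle in Tg mice and 487 with CG against 1274 with vehicle in WT mice, differences of -0.51 in Tg mice and -1.39 in WT mice. A dimmer Ttn probe set had a log2 difference of -0.02 in Tg mice and -0.98 in WT mice, where the brightest had log2 differences of -0.03 in Tg mice and -0.25 in WT mice. The remaining Ttn probe sets had WT differences of -0.33, -0.16, -0.35 and 0.35. Of the 14 genes, the dimmest probe set had a lower difference than the brightest in 9 in Tg mice and in 5 in WT mice. The SD between probe sets of the same gene, over all genes, was 0.311 for the Tg difference and 0.460 for the WT difference.

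**Figure D4:**
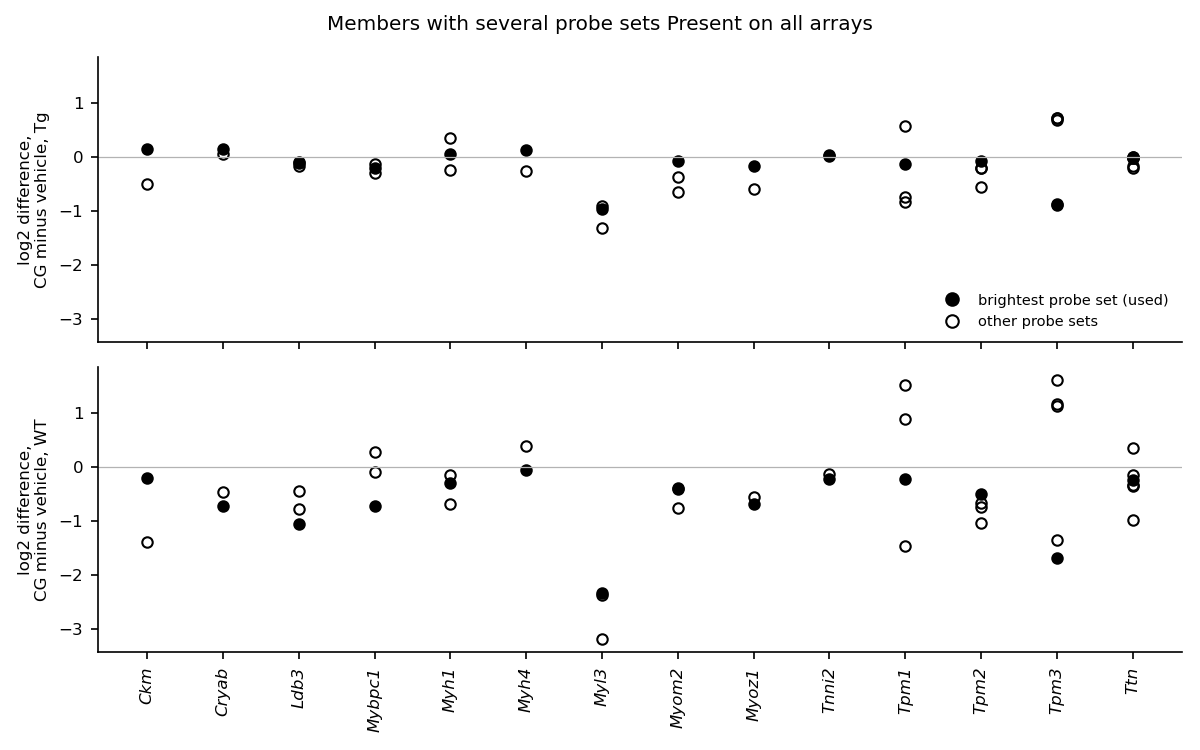
Log2 difference of CG minus vehicle (y axis) of every probe set Present on all arrays, for the 14 members that had more than 1 (x axis), in Tg mice (top) and WT mice (bottom); filled circles are the brightest probe sets, which were used. The 3 Myl3 probe sets lie together below 0, whereas those of Tpm1 and Tpm3 lie on both sides of 0.

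At the Z disc and desmin scaffold, the 11 genes had a median of -0.10 in Tg mice and -0.73 in WT mice, and Ldb3 and Myoz2 were called lower in WT mice. Ldb3, which encodes the PDZ and LIM protein ZASP that binds alpha-actinin, had a signal of 4602 on the CG Tg array and 4949 on the vehicle Tg array, and 2956 on the CG WT array and 6193 on the vehicle WT array. The CG WT array was thus the lowest of the 4, at 2.09-fold below the vehicle WT array. Actn2 and Actn3, the alpha-actinins that cross-link thin filaments, had log2 differences of 0.16 and 0.06 in Tg mice and -0.83 and -0.37 in WT mice. Actn2 had a signal of 2755 with CG against 2458 with vehicle in Tg mice and 2083 with CG against 3703 with vehicle in WT mice. Cryab, a small heat shock protein that binds desmin and titin, had a signal of 7106 with CG against 6451 with vehicle in Tg mice and 5299 with CG against 8793 with vehicle in WT mice. Des itself, the intermediate filament of muscle, had a log2 difference of 0.04 in Tg mice and -0.47 in WT mice. The titin cap Tcap had a log2 difference of -0.29 in Tg mice and -0.66 in WT mice. Myot, Cmya5 and Smpx, which encode the actin-bundling myotilin, the desmin-binding myospryn and a small protein of the costamere, had log2 differences of -0.21, -0.22 and -0.32 in Tg mice and -0.76, -0.71 and -0.79 in WT mice. Myoz1, the fast fibre calsarcin, had a log2 difference of -0.17 in Tg mice and -0.69 in WT mice.

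The 3 M band and titin genes had medians of -0.09 in Tg mice and -0.42 in WT mice, and none was called. Ttn, Myom1 and Myom2, the last 2 being the myomesins that cross-link myosin at the M band, had log2 differences of -0.03, -0.26 and -0.09 in Tg mice and -0.25, -0.74 and -0.42 in WT mice. Muscle creatine kinase, Ckm, which rebuilds ATP beside the filaments, had a signal of 8076 with CG against 7362 with vehicle in Tg mice and 8097 with CG against 9339 with vehicle in WT mice. Myoglobin, Mb, the oxygen store of oxidative fibres, had a signal of 6085 with CG against 6933 with vehicle in Tg mice and 5545 with CG against 8001 with vehicle in WT mice. Neither was called in either genotype.

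Between the genotypes, no member was called under CG, against 1.75% of all genes called either way, and none under vehicle, against 1.46%. With the dimmest Present probe set of each gene, Myh4 was called higher in Tg mice under CG, against 2.01% of all genes called. Under vehicle, Myh4 and Tpm1 were then called higher and Myl3 lower, against 3.15%. That Myh4 probe set had Tg minus WT differences of 1.23 under CG and 1.89 under vehicle. With the brightest probe sets, the member median of Tg minus WT under CG was 0.12, with 29 members above 0. The median of all genes was -0.03, with 5963 of 12754 above 0. That of the 379 genes with a mean signal of 1861 to 5550, as bright as many members, was 0.15. All 11 Z disc and desmin genes lay above 0 under CG, from 0.13 to 0.64. Mylk2 and Tmod1 had the highest values under CG, 0.82 and 0.67. Under vehicle the member median of Tg minus WT was -0.27, where that of all genes was -0.04 and that of all genes with a log2 signal between 12 and 13, as bright as many members, also -0.27. The member median was 0.00 with quantile normalization and 0.15 with the signals as deposited. Of the members 42 lay below 0, all but Tmod1 at 0.14. The slow genes were lower in Tg than in WT mice under vehicle, with a median of -0.71 (8 of 8 below 0), where the fast genes had -0.25. With the signals as deposited the slow median was -0.30 and the fast median 0.16. With quantile normalization they were -0.50 and 0.00. Under CG the slow median was 0.11 and the fast median 0.05. The slow genes of the 2 genotypes were thus closer to each other on the CG arrays than on the vehicle arrays. The CG difference was higher in Tg mice than in WT mice for 42 of the 43 members, all but Actc1, against 51.2% of all genes. This count depended on the scaling, at 22 members (19.2% of all genes) with the signals as deposited and 34 (56.3%) with quantile normalization. The median gap over the members was 0.47, against 0.02 over all genes, but with quantile normalization it was 0.11, against 0.08 over all genes. Bright genes of any kind also had the lower CG difference in WT mice. Those with a log2 signal between 12 and 13 had median CG differences of -0.08 in Tg mice and -0.45 in WT mice. Both CG differences of the slow genes stayed below 0 when the vehicle arrays were exchanged, with medians of -1.32 (CG Tg minus vehicle WT) and -0.69 (CG WT minus vehicle Tg). By the size rule, 10 members were then lower for CG Tg against vehicle WT (2.45% of all genes) and 5 for CG WT against vehicle Tg (3.57% of all genes). Of the 10 members called lower in WT mice, 4 were lower against either vehicle array, Myl2, Myl3, Mylk2 and Tpm3, and Tmod1 was lower against the vehicle Tg array alone. With that array as the control of the CG WT array, the median of all members was -0.28, that of the thick filament genes -0.09, of the thin filament genes -0.28 and of the Z disc and desmin genes -0.42. The fast median was then 0.01, with 6 of the 12 fast genes below 0. The count thus differed more between the vehicle arrays than between the CG arrays, with 10 lower against the vehicle WT array for either CG array.

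The additive limma fit of treatment and genotype over all 4 arrays, which takes any difference between the genotypes' CG responses as error, called 0 members for treatment after Benjamini-Hochberg adjustment over 12754 genes, against 0.0941% of all genes. At an unadjusted p under 0.05, 11 of the 43 members passed, where 23% of all genes did. Among the members, the lowest adjusted p in limma's fit was 0.0791 for Actc1, with a CG minus vehicle coefficient of 1.23, above 0 in both genotypes. Next came Mylk2 (coefficient -1.66, adjusted p = 0.0878 by limma) and Tpm3 (coefficient -1.30, adjusted p = 0.102 by limma), each below 0 in both genotypes. For genotype, limma called 0 members and 0 of all genes. By the same limma fit 1 member had an unadjusted p under 0.05, where 4.96% of all genes did. The count for treatment depended on the settings, and that of all genes moved with it. It was 11 with an intensity trend in the variance prior (2483 of all 12754 genes). Among genes Present on all 4 arrays it was 12 (2228 of 10406). With a pseudocount of 32 it was 15 (2358 of 12760), and with the signals as deposited 4 (722 of 12754).

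Most developmental and cardiac isoforms outside the list had higher signals after CG in both genotypes. Of 8 such genes, listed with earlier results of these data known, 5 were called higher in both, against 387 of all 12754 genes. These were Myh3, Myh8, Myl4, Tnnt2 and Ankrd1. The median of the 8 was 1.99 in Tg mice, 2.25 in WT mice and 2.54 for the CG WT array against the vehicle Tg array. Myh3, the embryonic myosin heavy chain, had a signal of 549.8 with CG against 135 with vehicle in Tg mice and 789 with CG against 169 with vehicle in WT mice (4.09-fold higher in Tg mice and 4.67-fold in WT mice). Myh8, the perinatal heavy chain, had a signal of 503 with CG against 127 with vehicle in Tg mice and 1234 with CG against 159 with vehicle in WT mice, and under CG it was 2.45-fold lower in Tg than in WT mice. Both CG arrays lay above both vehicle arrays for these heavy chains. The embryonic and atrial light chain Myl4 had a signal of 1012 with CG against 238 with vehicle in Tg mice and 1643 with CG against 338 with vehicle in WT mice. Tnnt2, the troponin T of heart and embryonic skeletal muscle, had a signal of 469.8 with CG against 119 with vehicle in Tg mice and 691 with CG against 121 with vehicle in WT mice. Ankrd1, a titin-binding ankyrin repeat protein known as a response gene of stressed or injured muscle, had a signal of 944 with CG against 119.8 with vehicle in Tg mice and 1059 with CG against 76.9 with vehicle in WT mice, and its log2 difference was 2.98 in Tg mice and 3.78 in WT mice. Of the other 3 genes, named after their values were seen, Tnni3 and Mybpc3, which belong to the heart, were Present on no array, and the cardiac heavy chain Myh6 was Present on the vehicle WT array alone. Myog, the transcription factor of differentiating muscle cells, was also called higher in both genotypes, at 217 with CG against 82.1 with vehicle in Tg mice and 480.5 with CG against 117 with vehicle in WT mice. The other 3 muscle stem cell genes, Pax7, Myf5 and Myod1, were called in neither genotype.

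**Figure D5:**
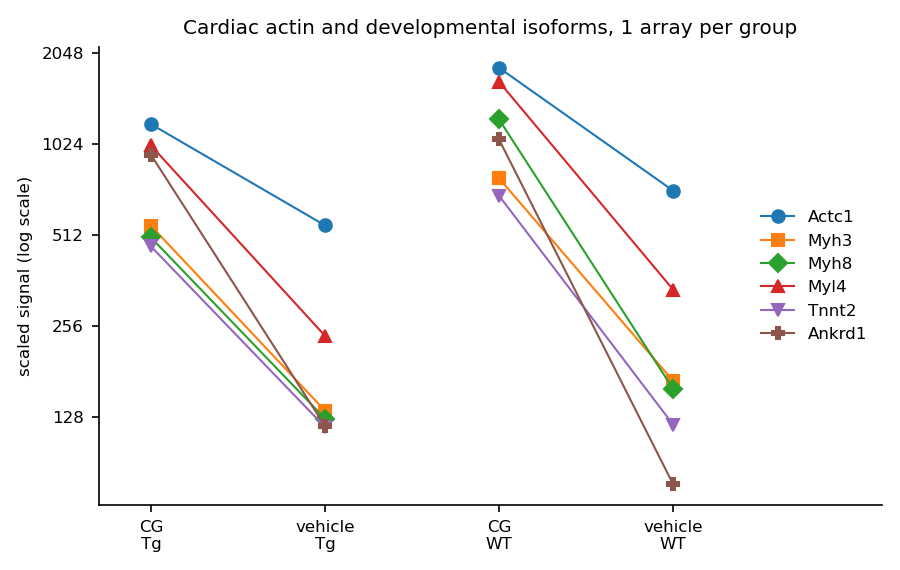
Scaled signal (y axis, log scale) of cardiac actin (Actc1) and 5 developmental or stress-related muscle genes on the CG and vehicle arrays of Tg and WT mice (x axis), 1 array per group. For all 6 genes both CG arrays lie above both vehicle arrays, and the CG WT array is the highest.

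Sarcomere and fibre genes outside the list had medians near those of the members. Of 23 further sarcomere genes measured, 0 were called lower in Tg mice and 3 in WT mice, Csrp3, Myoz3 and Capn3. Of all genes 1.4% were called lower in Tg mice and 4.93% in WT mice. The medians of the 23 were -0.19 in Tg mice and -0.72 in WT mice. Those of the 379 genes of any kind with a mean signal of 1861 to 5550 were -0.16 in Tg mice and -0.51 in WT mice, and 43 of these were called lower in WT mice. Capn3, the muscle protease bound to titin, had a signal of 494 with CG against 687 with vehicle in Tg mice and 309 with CG against 843 with vehicle in WT mice. Csrp3, the muscle LIM protein, had a signal of 2669.9 with CG against 2172 with vehicle in Tg mice and 2227 with CG against 5043 with vehicle in WT mice, so that the vehicle WT array alone stood high. Obsl1, an obscurin-like cytoskeletal adaptor, was called higher in WT mice, at 1.19, against 0.63 in Tg mice. Fhl3 was Absent on all 4 arrays. Of 13 further fibre genes, for excitation, calcium handling and energy use, 0 were called lower in Tg mice (1.4% of all genes). In WT mice 2 were, Ampd1 and Cacna1s (4.93% of all genes). The medians of the 13 were -0.18 in Tg mice and -0.61 in WT mice. Atp2a2, the calcium pump of slow fibres and heart, had a log2 difference of -0.52 in Tg mice and -0.80 in WT mice.

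Markers of other cell types differed between CG and vehicle as well. The summed signal of 6 fibroblast markers was 30760.4 on the CG Tg array and 18368 on the vehicle Tg array, and 35693 on the CG WT array and 18088 on the vehicle WT array. All 6 had a difference above 0 in both genotypes, and Col1a1 was called higher in both, at 2.02 in Tg mice and 2.44 in WT mice. The summed signal of 5 macrophage markers was 6614 with CG against 4792 with vehicle in Tg mice and 7016 with CG against 4611 with vehicle in WT mice, with Cd68 and Itgam called higher in both. That of 4 adipocyte markers was 8088 with CG against 11072 with vehicle in Tg mice and 5984 with CG against 10746 with vehicle in WT mice, with Lep and Cidec called lower in both and Lep Absent on both CG arrays. The 5 mesothelial markers summed to 391 with CG against 373 with vehicle in Tg mice and 227 with CG against 465 with vehicle in WT mice, so their sum was lowest on the CG WT array. The markers did not move as one: Upk3b and Krt19 were called lower in WT mice, 3.36-fold and 4.01-fold, and Wt1 was called higher in Tg mice, with a log2 difference of 1.26 (0.95 in WT mice). The 7 smooth muscle markers summed to 2371 with CG against 2331 with vehicle in Tg mice and 3378 with CG against 2363 with vehicle in WT mice, with Actg2, Tagln and Cnn1 called higher in WT mice, Lmod1 called lower in Tg mice (-1.03) and none of the 7 called alike in both genotypes. The 43 members took 4.79% of the summed gene signal on the CG Tg array, 5.05% on the vehicle Tg array, 4.56% on the CG WT array and 5.78% on the vehicle WT array. The part of these other cell types in the members' differences was not tested.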

How the data were processed

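Total RNA of the parietal peritoneum was measured on 4 Affymetrix arrays, with groups taken from the sample labels. Per the file headers, each deposited array file lists a signal for every probe set, which is a fluorescence intensity that has not been log-transformed. The authors also deposited a detection p-value and a Present, Marginal or Absent call for each signal. The signal algorithm is not given in the sources used here, and the study's text says that the raw scanner files were lost. Each array was rescaled to a common 2% trimmed mean (factors 1.01 for CG Tg, 0.877 for vehicle Tg, 0.984 for CG WT and 1.17 for vehicle WT), floored at 0.1 and taken to log2. The 45101 probe sets hold 64 controls, which were not used, and 34945 that the platform annotation gives a single symbol. Those with several symbols (932) or none in the table used here (9160) were not named. A gene took its brightest probe set, and 12754 genes Present on at least 1 array were tested. Calls by size are described with the results. The additive fit used limma 3.58.1 in R 4.3.3 with 1 residual degree of freedom, was checked on simulated data and was adjusted by Benjamini-Hochberg at 0.05. The number of mice per array is not in the labels, so its p-values measure only the spread between these 4 arrays, whose number limits the precision. Other steps used Python 3.11.15, numpy 2.4.6 and pandas 2.3.3. All 43 members could be named. Of other gene lists, those called in both genotypes alike and the 3 with the largest mean absolute difference were named, and others named for a small count were chosen after their values were seen. The members, the isoform lists and the other lists were chosen with earlier results of these data known. Alternatives covered scaling, floor, filters, probe set choice, the size threshold, the vehicle array and the variance prior.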

Additional observations from a re-analysis of the deposited data

Results flagged for a closer look

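For 13 of the 43 members the CG difference was above 0 in Tg mice and below 0 in WT mice, and 8 of the 13 are fast isoforms. The share of all genes with such signs is not given here, so the count is not read as a trait of the members. All genes with a log2 signal between 12 and 13, as bright as many members, had medians of -0.08 in Tg mice and -0.45 in WT mice. Each sign rests on 1 array per group, and the difference between the genotypes was not tested. Among these 13, Actn2 had the widest gap: its Tg difference exceeded its WT difference by 0.99 on the log2 scale. Outside the 13 some gaps were wider, such as 1.37 for Myl3. Only the 13 are ranked here. Cryab followed at 0.87 and Des at 0.51. Among the fast genes the gap was 0.44 for Actn3, 0.37 for Mylpf, 0.35 for Myh1, 0.25 for Tnni2, 0.24 for Myh2, 0.22 for Tnnc2, 0.21 for Myl1 and 0.18 for Myh4. It was 0.34 for Ckm and 0.25 for Acta1. None of the 13 was called in either genotype, and the Tg values were all between 0.02 and 0.16. They are smaller than the shift of -0.20 in the median of all genes in Tg mice with the signals as deposited.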

How the results depend on the processing

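No paired analysis was possible because each group has 1 array and the labels give no replicate numbers, and for the same reason no replicate could be left out. Of 13 alternatives, 5 leave the slow minus fast median as it is by construction (a change of scale or of the genes tested), and it kept its direction under the other 8, from -1.12 to -0.63 in Tg mice and from -1.21 to -0.70 in WT mice. Its lowest Tg value, -1.12, came with the vehicle WT array as the Tg control. The member median stayed below 0 in both genotypes, at -0.34 to -0.14 in Tg mice and -0.89 to -0.28 in WT mice. With the signals as deposited, the median of all genes shifted by -0.20 in Tg mice and by 0.25 in WT mice, and in WT mice by -0.23 with median centring and -0.11 with quantile normalization. Relative to that median the WT member median was -0.66 with the deposited signals and with centring, and -0.22 with quantile normalization. Members called either way (2 in Tg mice and 11 in WT mice, where 5.21% and 13.2% of all genes were called) numbered 5 in Tg mice with the deposited signals (5.09% of all genes). At 1.5-fold they were 8 in Tg mice (15.1%) and 24 in WT mice (31.5%), and at 3-fold 0 in Tg mice (1.59%) and 5 in WT mice (4.48%). With the other genotype's vehicle array they were 10 for the CG Tg array (7.62%) and 6 for the CG WT array (10.8%). Between the genotypes (0 called under each treatment) there were 5 under CG (7.76% of all genes) and 8 under vehicle (7.12%) at 1.5-fold, 1 under each when a gene's probe sets were averaged (2.93% under CG and 3.69% under vehicle), and 2 under vehicle with median centring (1.63%). With the dimmest Present probe set of each gene, 1 member was called higher under CG (2.01% of all genes called either way). Under vehicle 1 was then lower and 2 were higher (3.15%). The Tg minus WT member median under vehicle was 0.15 with the deposited signals, which turns its direction, while all genes had 0.37 there. The additive fit called 0 members, against 11 with an intensity trend, 4 with the deposited signals, 15 with a pseudocount of 32 and 12 among genes Present on all 4 arrays, where it called 2483, 722, 2358 and 2228 of all genes. The cause of these changes was not tested. The dimmest Present probe set, the moved tropomyosins and the leaving out of Mylk2 were chosen after seeing the data. The number of arrays limits every value, and the brightest members lie near the top of the signal range of an array.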
